A study of Mus musculus with 24 samples.

Results

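Insulin-like growth factor 1 (Igf1) and 5 genes whose proteins carry it in the blood were followed in mouse liver with and without the transcription factor FoxO1, before and after a meal. The 6 genes were Igf1, Igfals, Igfbp1, Igfbp2, Igfbp3 and Igfbp4, found by their symbols, each at 1 of the 23746 loci listed for every library. Loss of FoxO1 went with less Igfbp2 and, in fasted livers of the constitutive model, less Igfbp1, and with slightly more Igf1 in refed livers over both models. In refed livers of the constitutive model the Igfbp1 difference was of similar size (log2, -1.32 against -1.44 when fasted) but was not called. Refeeding went with less Igfbp1 and slightly more Igfbp3 and Igfals, where 30.3% of all genes were called. The Igf1 call was lost in 15 of 17 alternative settings of the test. That of Igfals was lost in 13 of 29, and that of Igfbp1 in fasted constitutive livers in 9 of 11. The separate Igfbp1 responses to refeeding (log2) were -2.49 and -2.33 in the acute groups, -0.28 and -0.40 in the constitutive ones. None of these was called alone.

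Most circulating IGF1 is made by hepatocytes under the control of growth hormone. In blood it is bound by IGF-binding proteins (IGFBPs), which prolong its life and limit its access to receptors, and the acid-labile subunit, encoded by Igfals, joins IGF1 and IGFBP3 in a large stable complex. IGFBP1 is the acutely regulated member: insulin silences its gene in hepatocytes, FoxO1 activates it, and insulin acts by driving FoxO1 out of the nucleus.

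The mice were C57BL/6. In the acute model, FoxO1lox/lox mice received an adeno-associated virus of serotype 8 with the hepatocyte-specific TBG promoter, carrying the Cre recombinase (AAV8.TBG.Cre, called Cre) or green fluorescent protein (AAV8.TBG.eGFP, called GFP), and livers were collected on day 21. In the constitutive model, the same floxed allele was crossed to an Albumin-cre transgene (genotype FoxO1-/-, called KO), and FoxO1lox/lox mice served as wild type (WT). GFP and WT controls thus both carried the floxed allele, while only the acute groups carried virus. Cre, GFP, KO and WT are called the 4 genotypes below, although GFP and WT mice shared the floxed allele and differed by virus and model. Each was sampled after 4 h of fasting with 1 h of refeeding or after 4 h of fasting alone. This gave 8 groups of 3 libraries, and ages were not given. Whether the 3 libraries of a group came from 3 mice is not stated in the labels. The p-values therefore describe the spread among these libraries alone, and that spread could be technical.

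Foxo1 itself matched the labels. Its level was 0.212 to 0.571 FPKM (fragment numbers divided by transcript length and by the mapped total) in the 12 Cre and KO libraries, against 4.21 to 6.81 FPKM in the 12 GFP and WT libraries. Relative depth, read from steps between low values, was 1.16 to 1.37 times the mean in 1 library of each acute group, 0.549 to 0.668 in the other 8 acute libraries, and 1.10 to 1.27 in the constitutive ones. All 6 hepatocyte markers checked (Alb, Apoa1, Ttr, Cps1, Tat and Ass1) were expressed in every group. The tissue was whole liver, so fewer cells of a type and less RNA per cell cannot be told apart.

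The upstream sequences of Igfbp1 and Igfbp2 are shown because these were the genes called lower in a comparison of knockout with control. Each run covers the 240 bases from 250 to 11 bases before the RefSeq start site, 5′ to 3′ on the plus strand of GRCm38.p6. Capitals mark CAAAACA, the core of the insulin response element to which FoxO proteins bind, and CAAAATA, a variant of that core, on either strand. CAAAATA was added after the Igfbp1 sequence had been seen.
Igfbp1 (chr11:7197537-7197776): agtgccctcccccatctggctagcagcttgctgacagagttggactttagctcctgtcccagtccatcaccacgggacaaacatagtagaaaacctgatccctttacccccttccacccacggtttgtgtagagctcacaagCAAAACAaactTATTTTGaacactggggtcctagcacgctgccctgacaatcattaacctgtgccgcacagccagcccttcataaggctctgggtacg
Igfbp2 (chr1:72824230-72824469): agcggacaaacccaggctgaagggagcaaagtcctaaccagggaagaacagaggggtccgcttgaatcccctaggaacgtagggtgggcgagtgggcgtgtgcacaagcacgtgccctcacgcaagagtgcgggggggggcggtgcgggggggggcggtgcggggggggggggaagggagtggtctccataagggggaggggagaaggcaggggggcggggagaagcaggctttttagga
The Igfbp1 window held CAAAACA on the plus strand starting 108 bases before the start site, and CAAAATA on the minus strand (read as TATTTTG above), its first printed base 97 bases before the start site. The Igfbp2 window held neither, nor did a window at a later Igfbp2 start in the table.

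Over windows of 250 bases before to 50 after each start, CAAAACA on either strand was in 6.28% and CAAAATA in 4.36% of the 32851 RefSeq promoters. The forkhead core GTAAACA was in 3.65% of them and, among the 9 windows of the 6 genes, in 1 of the 3 for Igfals. TTCNNNGAA, the palindrome that STAT proteins bind, was in 8.3% of all promoters and in 2 of the 3 Igfals windows. None of these 4 motifs was in the windows of Igf1, Igfbp2, Igfbp3 or Igfbp4. The only Igf1 window (chromosome 10, 87860861 to 87861160) lay inside the measured locus, which starts at 87859056. Bases before that start were not searched. A match is a string of letters and no measure of binding.

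In GENCODE vM21 (GRCm38, the mm10 assembly), all 6 are protein-coding genes. Igfbp1 (chromosome 11, 7197782 to 7202546, plus strand, ENSMUSG00000020429.7) and Igfbp3 (chromosome 11, 7206086 to 7213923, minus strand, ENSMUSG00000020427.11) are neighbours that point toward each other, with 3539 bases between them. Igfbp4 lies on the same chromosome (99041244 to 99054392, plus strand). Igfbp2 is on chromosome 1 (72824503 to 72852474, plus strand), Igfals on chromosome 17 (24865997 to 24882010, plus strand) and Igf1 on chromosome 10 (87858265 to 87937042, plus strand). Igf1 is overlapped by the antisense gene Igf1os. The libraries were stranded, but the sources used here do not state how strand was used in counting. Whether Igf1os reads entered the Igf1 values is thus not known.

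The 6 genes spanned a wide range of levels. Mean FPKM over the 24 libraries was 650.4 for Igfbp4, 239 for Igfbp2, 138 for Igf1, 53.8 for Igfals, 36.3 for Igfbp1 and 6.97 for Igfbp3. Igfbp4 ranked 114 and Igfbp3 ranked 5106 among all loci. The distance between Igfbp2 and Igf1 differed with genotype. In Cre and KO groups Igfbp2 averaged 119 to 186 FPKM and Igf1 142 to 161 FPKM, and the library ranges of the pair overlapped in all 4 of these groups. In GFP and WT groups Igfbp2 averaged 313 to 369 FPKM and Igf1 120.1 to 129 FPKM, and the ranges did not overlap. Igfals and Igfbp1 were also neighbours whose ranges overlapped, in Cre fasted, GFP fasted and WT refed livers.

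Variation between libraries of a group differed as much as the levels did. Igfbp4 was the steadiest, with a coefficient of variation within groups of 1.04% to 7.01%, and its highest library was 1.29 times its lowest. Igfbp1 was the most variable, with 9.07% to 105% within groups and a 30.8-fold span over all libraries. The spread of Igfbp1 lay mostly in the acute groups.

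**Figure D1:**
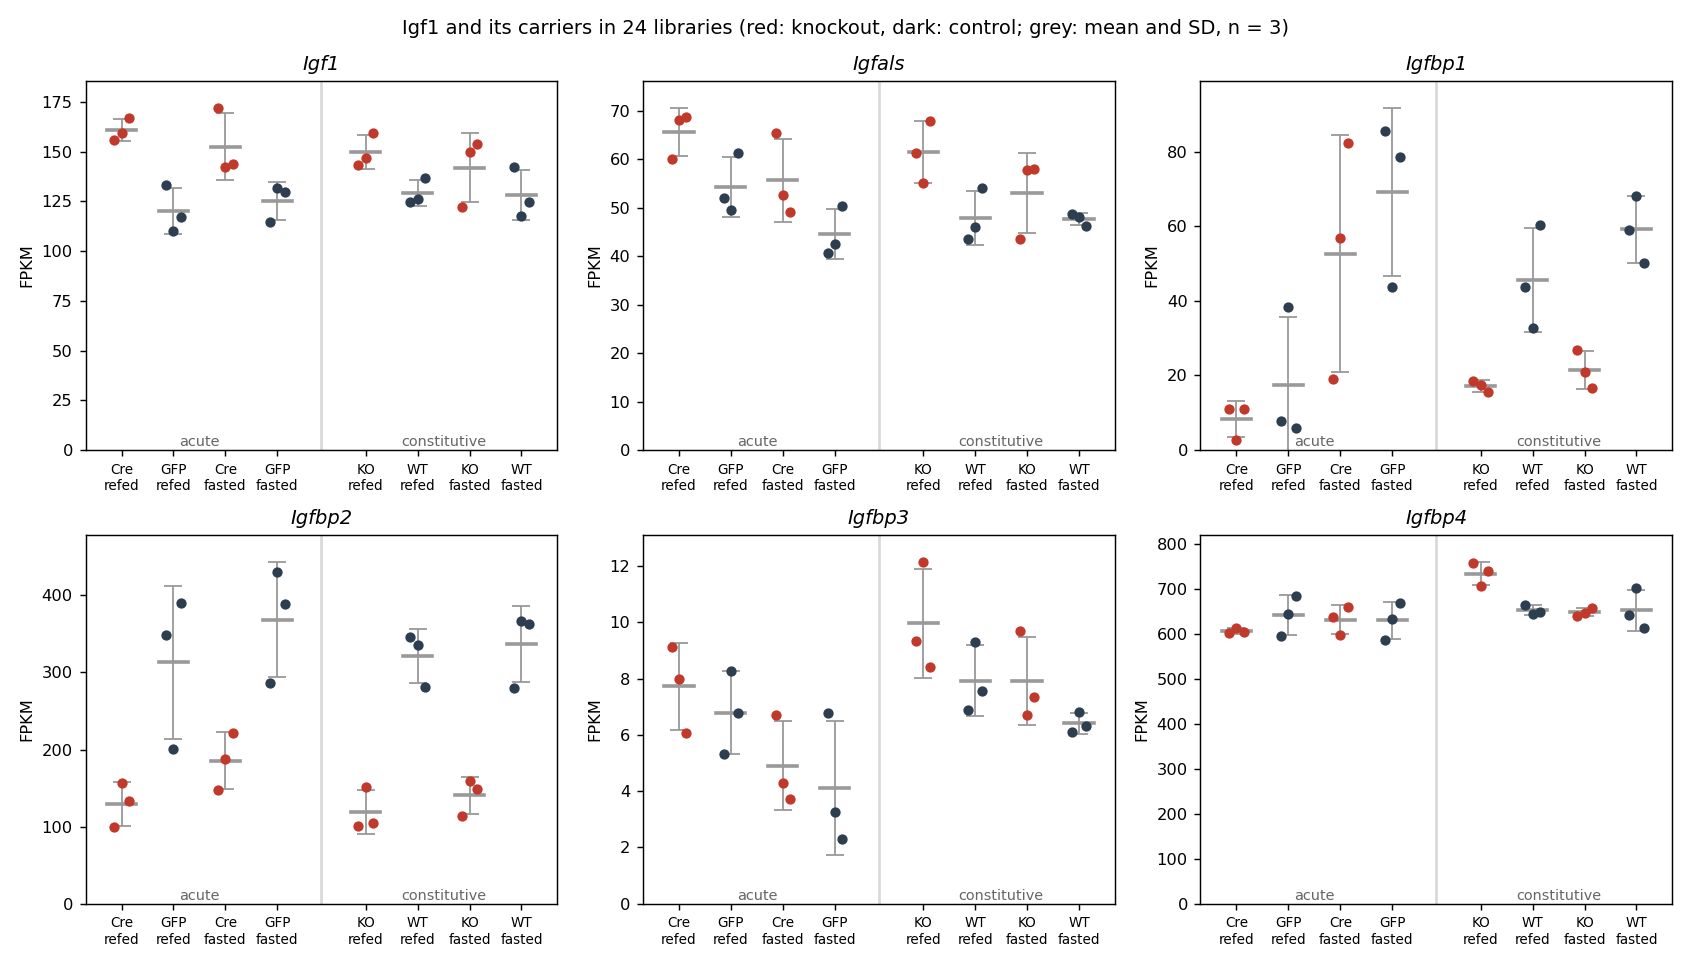
FPKM of each gene in each library (points), by group, with the group mean and SD (grey bars, n = 3); Cre and KO libraries are red, GFP and WT libraries dark, and an SD bar that reaches below 0 is cut at the axis. Igfbp2 is lower in Cre and KO than in the matched GFP and WT libraries with no overlap, Igfbp1 spans 2.78 to 85.5 FPKM, and Igfbp4 stays between 588 and 758 FPKM.

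Igf1, the ligand, averaged 1.11 to 1.34 times the control level in FoxO1-deficient livers. In refed acute livers Igf1 was 156, 159.5 and 167 FPKM in Cre libraries, against 133, 110.2 and 117 FPKM in GFP libraries. In refed constitutive livers it was 143, 147 and 159 FPKM in KO libraries, against 124.5, 126 and 136.5 FPKM in WT libraries. The groups did not overlap in either model. Fasted Cre libraries had 172, 142 and 144 FPKM, against 114, 132 and 130 FPKM in fasted GFP libraries, again without overlap. Fasted KO libraries had 122, 149.9 and 154 FPKM and overlapped the fasted WT libraries at 142, 118 and 125 FPKM. Groups of 3 libraries can separate by chance, and the share of all genes whose groups did so was not counted. This limit holds for every lack of overlap described here.

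Differences were tested with limma on log2(FPKM + 1), with p-values adjusted by the Benjamini-Hochberg method over all genes kept and called at 0.05. Igf1 differed by 0.42 ± 0.10 (log2, SE; adjusted p = 0.167) in acute refed, 0.28 ± 0.10 (adjusted p = 0.278) in acute fasted, 0.21 ± 0.10 (adjusted p = 0.462) in constitutive refed and 0.14 ± 0.10 (adjusted p = 0.924) in constitutive fasted livers by limma, none of them called. The mean of the acute and constitutive effects, from 1 limma fit of all 24 libraries, was 0.32 ± 0.07 in refed livers (adjusted p = 0.0425), which was called higher, and 0.21 ± 0.07 in fasted livers (adjusted p = 0.209), which was not. The refed call was lost in 15 of 17 alternative settings, among them every left-out library except GFP refed 1, with adjusted p up to 0.118, while the log2 difference stayed between 0.287 and 0.337 over them.

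Igf1 was not called for refeeding. The mean of the 4 refeeding responses was 0.03 ± 0.05 on the log2 scale (95% interval -0.08 to 0.13; limma, adjusted p = 0.697). The separate responses were 0.08 in Cre, -0.06 in GFP, 0.08 in KO and 0.01 in WT livers.

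Igfals encodes the acid-labile subunit, which is made by hepatocytes under growth hormone. Its refed levels were 60.1, 68.1 and 68.8 FPKM in Cre libraries, against 52.0, 49.6 and 61.4 FPKM in GFP libraries, and 61.4, 55.1 and 67.9 FPKM in KO libraries, against 43.6, 46.0 and 54.1 FPKM in WT libraries. Fasted levels were 65.4, 52.7 and 49.1 FPKM in Cre, against 40.7, 42.6 and 50.4 FPKM in GFP libraries. Fasted KO libraries had 43.5, 57.8 and 58.0 FPKM, against 48.7, 48.1 and 46.2 FPKM in WT libraries. Of these 4 pairs of groups, only the refed KO and WT libraries did not overlap.

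The Igfals differences between knockout and control were 0.14 to 0.35 on the log2 scale in the 4 comparisons, and limma called none of them. Over both models they were 0.31 ± 0.09 (adjusted p = 0.157) in refed and 0.23 ± 0.09 (adjusted p = 0.328) in fasted livers by limma. Refeeding raised Igfals by 0.18 ± 0.06 on the log2 scale over all 4 genotypes (limma, adjusted p = 0.0344), with separate values of 0.24 in Cre, 0.28 in GFP, 0.21 in KO and 0.00097 in WT livers. Under median-of-ratios scaling, which centres the libraries on one another, that mean was 0.14 with adjusted p = 0.128, and 13 of 29 alternative settings lost the call. Across the 24 libraries, deviations of Igfals and Igf1 from their group means had a Pearson correlation of 0.691, a description of values that share libraries and scaling.

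Igfbp1, the insulin-silenced binding protein, fell in fasted livers of the constitutive knockout. In constitutive fasted livers it was 26.8, 20.9 and 16.5 FPKM in KO, against 59.1, 68.1 and 50.2 FPKM in WT libraries. In constitutive refed livers it was 18.5, 17.4 and 15.5 FPKM in KO, against 43.7, 32.7 and 60.3 FPKM in WT libraries. Every KO library lay below every WT library, whichever the feeding state. KO livers thus held 36.2% of the WT mean when fasted and 37.6% when refed.

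The log2 differences were -1.44 ± 0.21 in fasted constitutive livers (limma, adjusted p = 0.0267, called lower) and -1.32 ± 0.21 in refed ones (limma, adjusted p = 0.0637, not called). The fasted call was lost when any of the 6 compared libraries was left out (adjusted p of 0.0519 to 0.137), with log2 differences of -1.61 to -1.28. It was also lost with no filter on low values (adjusted p = 0.0777), with a replicate block (adjusted p = 0.0585) and with the 2 compared groups fitted alone (adjusted p = 0.0558), all by limma. The refed difference passed without WT refed 2, at adjusted p = 0.0409.

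In acute livers Igfbp1 did not separate Cre from GFP. Fasted Cre libraries held 19.1, 56.7 and 82.2 FPKM, against 85.5, 43.6 and 78.4 FPKM in fasted GFP libraries. Refed Cre libraries held 11.02, 2.78 and 11.1 FPKM, against 7.89, 38.4 and 5.93 FPKM in refed GFP libraries. The groups overlapped in both states, and 1 library of each pair stood apart: Cre fasted 1 was low and GFP refed 2 was high. The log2 differences were -0.56 ± 0.71 in fasted livers (95% interval -2.10 to 0.99; limma, adjusted p = 0.815) and -0.71 ± 0.71 in refed livers (95% interval -2.26 to 0.84; limma, adjusted p = 0.849). They became 0.040 without Cre fasted 1 and 0.061 without GFP refed 2, so each direction rested on 1 library. Cre fasted 1 was the deeper library of its group, at a relative depth of 1.16, while GFP refed 2, at 0.621, was not.

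The difference between the models, acute minus constitutive, was 0.88 ± 0.79 for the fasted and 0.61 ± 0.79 for the refed Igfbp1 effect (log2; limma, adjusted p = 0.873 and 0.814). Their 95% intervals, -0.77 to 2.54 and -1.05 to 2.26, include both no difference and a large one. Averaged over the models, the Igfbp1 effects were -1.02 ± 0.40 in refed and -0.997 ± 0.40 in fasted livers, and limma called neither (adjusted p = 0.376 and 0.326).

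In the acute groups, with or without FoxO1, Igfbp1 lay lower after a meal. Refed Cre livers held 15.8% of the fasted Cre mean and refed GFP livers 25.2% of the fasted GFP mean, and in both pairs every refed library lay below every fasted one. The log2 responses were -2.49 ± 0.71 in Cre (limma, adjusted p = 0.0634) and -2.33 ± 0.71 in GFP livers (limma, adjusted p = 0.0736). Neither was called, and each passed without 1 library: the Cre response without Cre fasted 1 (-3.08, adjusted p = 0.0494) and the GFP response without GFP refed 2 (-3.10, adjusted p = 0.0298).

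In the constitutive groups the refed and fasted libraries overlapped, with refed levels at 80.1% of the fasted mean in KO and 77.1% in WT livers. The log2 responses there were -0.28 ± 0.21 in KO (limma, adjusted p = 0.424) and -0.40 ± 0.21 in WT livers (limma, adjusted p = 0.386). The acute response minus the constitutive one was -2.06 ± 0.56 (95% interval -3.24 to -0.89; limma, adjusted p = 0.0594), not called. It passed without Cre fasted 1 (-2.36, adjusted p = 0.0297), without GFP refed 2 (-2.45, adjusted p = 0.0184) and without the 4 deeper acute libraries (-2.20, adjusted p = 0.0489). Over all 4 genotypes Igfbp1 was lower after refeeding, with a log2 response of -1.37 ± 0.28 (limma, adjusted p = 0.00119). Virus was given in the acute model alone, so virus and model cannot be told apart.

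The response to a meal in FoxO1-deficient livers minus that in their controls was -0.16 ± 0.999 in the acute and 0.12 ± 0.30 in the constitutive model for Igfbp1 (log2; limma, adjusted p = 0.985 for both). The 95% intervals were -2.35 to 2.03 and -0.53 to 0.77.

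Igfbp2, an abundant binding protein made by hepatocytes, showed the clearest difference between genotypes. Fasted Cre libraries held 147, 188 and 222 FPKM, against 286, 431 and 389 FPKM in fasted GFP libraries. Refed Cre libraries held 98.9, 156 and 133 FPKM, against 349, 201 and 390.3 FPKM in refed GFP libraries. Each Cre library was below each GFP library of its state, though limma called neither acute difference.

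In constitutive livers Igfbp2 was 114, 159.5 and 149 FPKM in fasted KO, against 280, 367 and 363 FPKM in fasted WT libraries. It was 100.5, 152 and 105 FPKM in refed KO, against 346, 336 and 282 FPKM in refed WT libraries. Again no library crossed to the other side. Mean Igfbp2 was thus 50.4% of GFP in fasted and 41.3% of GFP in refed Cre livers, and 41.8% of WT in fasted and 37.0% of WT in refed KO livers.

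Igfbp2 was called lower in both constitutive comparisons, at -1.26 ± 0.18 in fasted (limma, adjusted p = 0.0267) and -1.45 ± 0.18 in refed livers (limma, adjusted p = 0.0173). The acute differences were -0.98 ± 0.26 in fasted (limma, adjusted p = 0.154) and -1.24 ± 0.26 in refed livers (limma, adjusted p = 0.113), not called. Over both models the log2 differences were -1.34 ± 0.17 in refed (limma, adjusted p = 0.000834) and -1.12 ± 0.17 in fasted livers (limma, adjusted p = 0.00186). Both calls held in all 17 alternative settings run for each, with adjusted p of at most 0.0133. The constitutive fasted call was lost without any 1 of 5 libraries, the exception being WT fasted 1, and the refed one without WT refed 1, WT refed 2 or KO refed 3 (adjusted p up to 0.124 and 0.0785). With no filter on low values both constitutive calls were lost (limma, adjusted p = 0.0651 in fasted and 0.0643 in refed livers), and the fasted one also with the 2 compared groups fitted alone (adjusted p = 0.0558).

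The acute minus constitutive difference in the Igfbp2 effect was 0.27 ± 0.34 in fasted and 0.21 ± 0.34 in refed livers (log2; limma, adjusted p = 0.913 and 0.851), with 95% intervals of -0.43 to 0.98 and -0.50 to 0.91. Refeeding changed Igfbp2 by -0.28 ± 0.12 on the log2 scale over all genotypes (limma, adjusted p = 0.0841), below zero in each genotype and called in none. Under median-of-ratios scaling the same response was -0.32 with adjusted p = 0.0499.

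**Figure D2:**
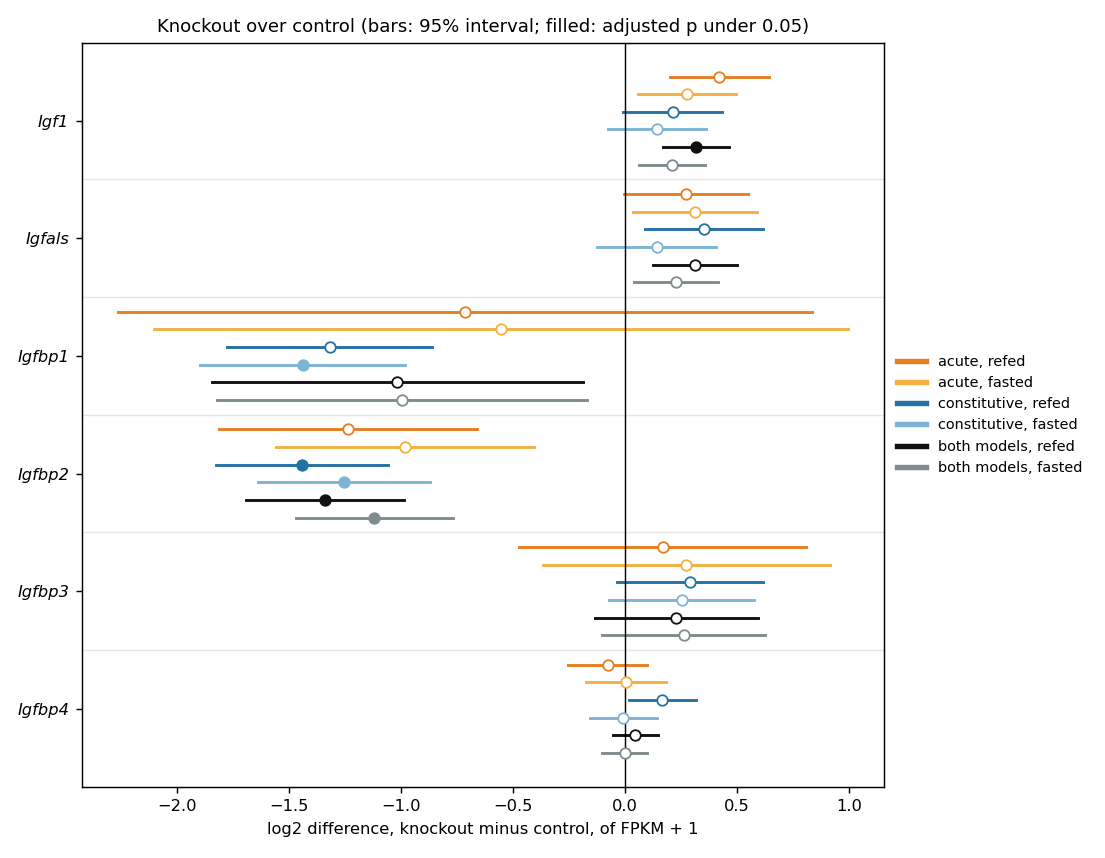
Differences between knockout and control livers in log2(FPKM + 1) for the 6 genes (rows), with 95% intervals from limma; filled points were called at an adjusted p of 0.05. All 6 Igfbp2 intervals lie below 0, those of Igfbp1 are widest in the acute model, and those of Igfbp4 stay within 0.32 of 0.

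Igfbp3, the main partner of IGF1 in the ternary complex and in rat liver made largely by non-parenchymal cells, was the least abundant of the 6. Refed libraries held 9.13, 7.98 and 6.08 FPKM in Cre, 5.31, 8.26 and 6.78 in GFP, 9.33, 12.1 and 8.42 in KO and 6.90, 9.32 and 7.57 FPKM in WT livers. Fasted libraries held 6.71, 4.29 and 3.73 FPKM in Cre, 6.79, 3.24 and 2.31 in GFP, 9.68, 6.69 and 7.34 in KO and 6.10, 6.82 and 6.31 FPKM in WT livers. Refed WT libraries were all above fasted WT libraries, and the other 3 pairs overlapped.

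Over all genotypes Igfbp3 rose on refeeding by 0.46 ± 0.12 on the log2 scale (limma, adjusted p = 0.00874), a call that held in all 29 alternative settings. The response was 0.58 in Cre, 0.69 in GFP, 0.30 in KO and 0.26 in WT livers, none called separately. The GFP response passed without GFP fasted 1 (1.04; limma, adjusted p = 0.0480), and was 0.42 to 1.04 with 1 library left out. Between knockout and control Igfbp3 differed by 0.17 to 0.29 on the log2 scale in the 4 comparisons, with overlapping groups and no call.

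Markers of other liver cell types were set beside Igfbp3. Refeeding over all genotypes was called by limma for 30.3% of all genes. Of 8 stellate and fibroblast markers it called 7 higher (all but Lrat), as it did 4 of 8 Kupffer and macrophage markers (Vsig4, Timd4, C1qa and C1qb) and 3 of 8 sinusoidal endothelial markers (Lyve1, Oit3 and Clec4g), and none lower. The summed stellate markers were 137 to 169.8 FPKM in refed and 64.8 to 165 FPKM in fasted libraries, and the summed Kupffer markers 35.0 to 217 FPKM in refed and 42.7 to 161 FPKM in fasted libraries. None of the 24 markers of the 3 lists averaged 0. Pearson correlations of Igfbp3 with the stellate sum were 0.798 in the 12 acute and 0.705 in the 12 constitutive libraries, and with the Kupffer sum 0.684 and 0.723. They were 0.566 and 0.517 with the summed cholangiocyte markers, 0.473 and 0.342 with the endothelial and 0.345 and 0.322 with the leukocyte markers, in acute and constitutive libraries. All are descriptions over libraries that share depth and include both feeding states. Their part in the Igfbp3 result was not tested.

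**Figure D3:**
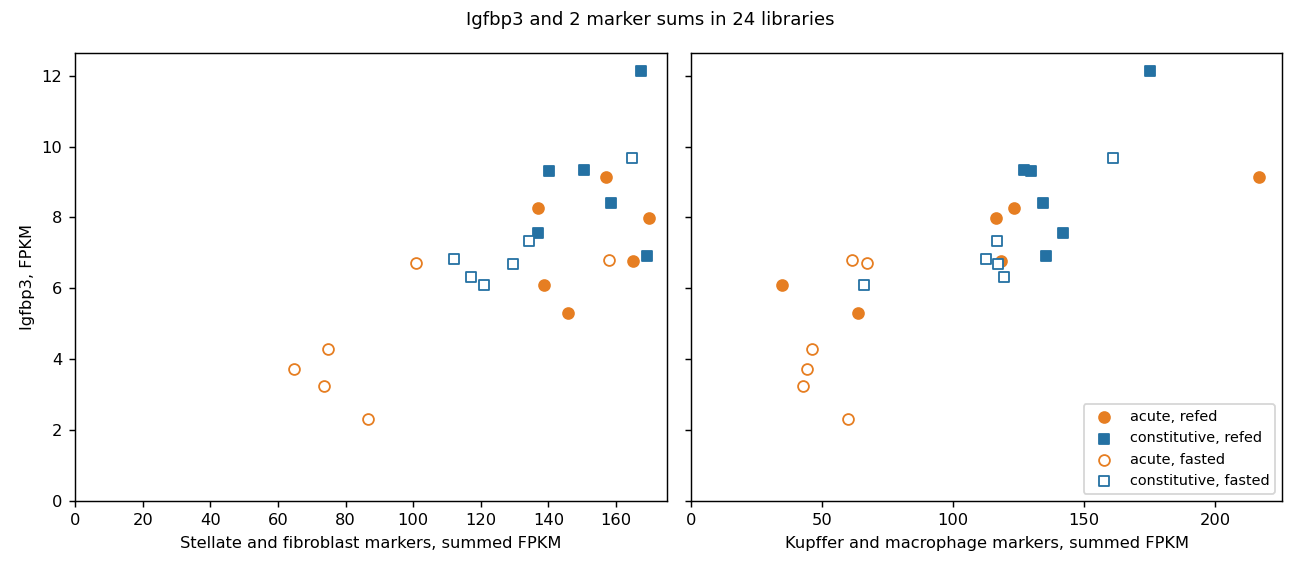
Igfbp3 in FPKM against the summed FPKM of 8 stellate and fibroblast markers (left) and of 8 Kupffer and macrophage markers (right), 1 point per library, filled for refed and open for fasted livers, circles for the acute and squares for the constitutive model. The 4 libraries with the lowest Igfbp3, 2.31 to 4.29 FPKM, are fasted acute libraries with low sums on both axes.

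Igfbp4, the most abundant of the 6 and a binding protein that holds IGF1 outside the ternary complex, was nearly flat. Its group means ran from 607 FPKM in refed Cre to 735 FPKM in refed KO livers. The refed KO libraries, at 758, 706 and 739.7 FPKM, lay above the refed WT libraries at 666, 646 and 650.2 FPKM. That difference was 0.17 ± 0.07 on the log2 scale (limma, adjusted p = 0.439), and the refed against fasted difference in KO livers was 0.18 ± 0.07 (limma, adjusted p = 0.134). Neither was called. In the other 3 knockout comparisons the Igfbp4 differences were within 0.08 of 0.

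The mix of binding-protein transcripts shifted accordingly. Summed FPKM of Igfbp1, Igfbp2, Igfbp3 and Igfbp4 was 722 to 969 in the 12 Cre and KO libraries, against 894 to 1146 in the 12 GFP and WT libraries. Igfbp2 made up 11.3% to 22.9% of that sum in Cre and KO libraries, against 22.5% to 38.8% in GFP and WT libraries, while Igfbp4 made up 68.2% to 85.5% against 57.0% to 72.2%. Igfbp3 never exceeded 1.37%.

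Igf1 FPKM divided by the summed FPKM of the 4 IGFBPs was 0.148 to 0.221 in Cre and KO libraries, against 0.103 to 0.144 in GFP and WT libraries. By group it averaged 0.214 ± 0.00861 in refed Cre, against 0.123 ± 0.0156 in refed GFP livers, and 0.170 ± 0.0117 in refed KO, against 0.126 ± 0.00991 in refed WT livers (SD, n = 3 each). In fasted livers it was 0.176 ± 0.0325 in Cre, against 0.117 ± 0.00257 in GFP, and 0.173 ± 0.0164 in KO, against 0.122 ± 0.0206 in WT (SD, n = 3 each). The 12 knockout libraries lay above the 12 controls, a description of RNA and not of protein in blood.

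**Figure D4:**
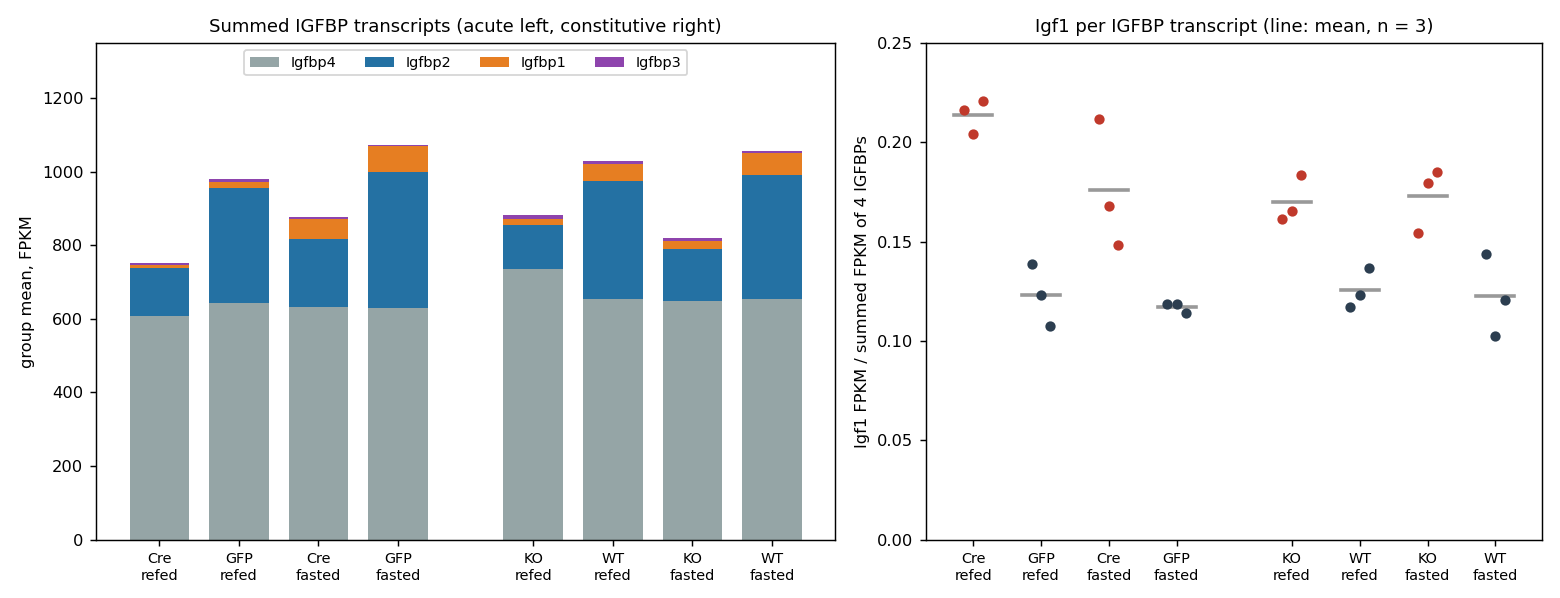
Left, group means of Igfbp4, Igfbp2, Igfbp1 and Igfbp3 in FPKM, stacked; right, the ratio of Igf1 FPKM to the summed FPKM of the 4 IGFBPs in each library, with the group mean as a line (n = 3). Igfbp2 is the layer that is thinner in Cre and KO groups, and the ratio is 0.148 to 0.221 in Cre and KO libraries against 0.103 to 0.144 in GFP and WT libraries.

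Counted over the 6 genes, the calls followed these patterns. In fasted constitutive livers limma called 2 lower (Igfbp1 and Igfbp2), where 0.0964% of the 10375 genes tested were called. In refed constitutive livers it called 1 lower (Igfbp2), against 0.0289% of all genes. In acute livers it called 0 of the 6, and it called 0.297% of the 10452 genes tested in fasted and 0.105% in refed livers. An unadjusted p under 0.05 was found for 3 of the 6 in fasted livers, against 12.3% of all genes, and for 2 in refed livers, against 9.09%. Over both models 1 was lower in fasted livers (Igfbp2), and in refed livers Igfbp2 was lower and Igf1 higher, where 0.814% and 0.674% of the 10682 genes tested were called.

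Refeeding over all genotypes gave 3 calls of the 6, with Igfbp1 lower and Igfbp3 and Igfals higher, where 30.3% of all genes were called, so a call in that comparison was common. Among all genes 2128 were called higher and 1108 lower there, or 1538 higher and 1663 lower under median-of-ratios scaling. The separate refeeding comparisons called 0 of the 6 by limma, against 5.44% of genes in Cre, 6.56% in GFP, 5.68% in KO and 0.318% in WT livers. At an unadjusted p under 0.05 the Cre comparison held 1 of the 6 (Igfbp1), the GFP comparison 3 (Igfals, Igfbp1 and Igfbp3), the KO comparison 1 (Igfbp4) and the WT comparison 0. Of all genes, 24% in Cre, 23.8% in GFP, 25.5% in KO and 15.6% in WT livers had such a p.

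**Figure D5:**
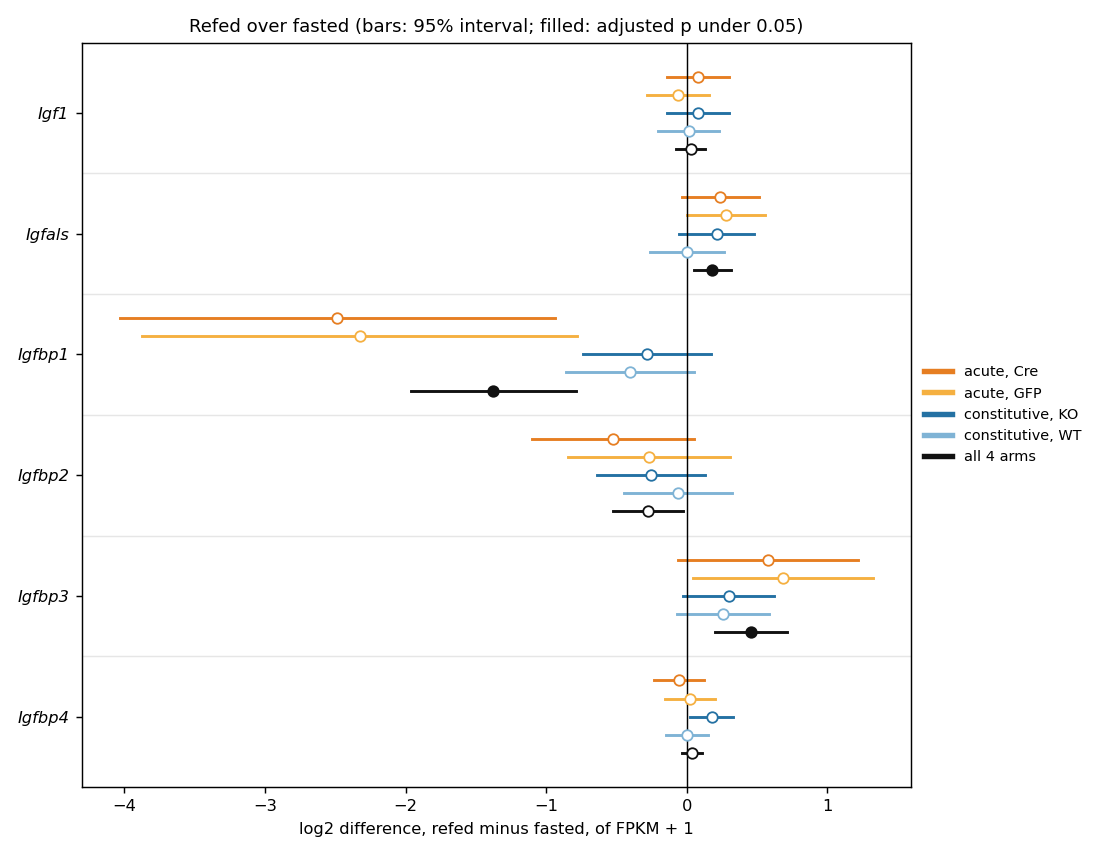
Differences between refed and fasted livers in log2(FPKM + 1) for the 6 genes (rows), with 95% intervals from limma, in each genotype and over all 4; filled points were called at an adjusted p of 0.05. The Igfbp1 responses are -2.49 and -2.33 in the acute groups and -0.28 and -0.40 in the constitutive groups, and Igf1 lies near 0 throughout.

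None of the 6 passed in a test of whether the response to refeeding depended on FoxO1. Such interactions were called by limma for 0.0287% of genes in the acute model, 0% in the constitutive model (457 genes had an unadjusted p under 0.05) and 0% over both (420 genes). None of the 6 had an unadjusted p under 0.05 there. For Igf1 the interaction was 0.14 ± 0.14 in the acute and 0.07 ± 0.14 in the constitutive model (log2; limma, adjusted p = 0.9003 and 0.985), and 0.11 ± 0.10 over both, where Igfbp1 had -0.02 ± 0.56 (limma, adjusted p = 0.9997 for both genes).

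Nor did limma call any of the 6 for a difference between the models. The acute minus constitutive knockout effect was called for 0% of genes in fasted and 0% in refed livers, where 839 and 1165 genes had an unadjusted p under 0.05, and the difference in refeeding response for 1.43%. At an unadjusted p under 0.05 these 3 comparisons held 0, 1 (Igfbp4, -0.24 ± 0.10) and 1 (Igfbp1) of the 6, against 7.85%, 10.9% and 21.5% of all genes. For Igf1 the differences were 0.14 ± 0.14, 0.21 ± 0.14 and -0.04 ± 0.10 on the log2 scale (limma, adjusted p = 0.901, 0.612 and 0.849).

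The 2 kinds of control livers were also compared, GFP against WT. In fasted livers limma called none of the 6, against 0.103% of genes. Igfbp3 had the one unadjusted p under 0.05, at -0.63 ± 0.25 on the log2 scale (adjusted p = 0.340), where 11.7% of all genes had one, Igfbp1 differed by 0.18 ± 0.56 and Igf1 by -0.03 ± 0.10. In refed livers it again called none, against 0.946% of genes. Igfbp1 was 17.4 ± 18.2 FPKM in refed GFP and 45.6 ± 13.9 FPKM in refed WT livers (SD, n = 3 each), a log2 difference of -1.75 ± 0.56 (limma, adjusted p = 0.106) that passed without GFP refed 2 (-2.53, adjusted p = 0.0294). Igf1 differed by -0.11 ± 0.10 there.

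Growth hormone drives hepatic Igf1 and Igfals through its receptor, the kinase JAK2 and the factor STAT5, with SOCS proteins and CISH as feedback inhibitors. Of 9 such genes (Ghr, Jak2, Stat5a, Stat5b, Socs1, Socs2, Socs3, Cish and Bcl6) 8 were tested, and none was called between knockout and control in any of the 6 comparisons, with medians of -0.15 to 0.12 and single values of -1.10 to 1.25 on the log2 scale. In acute fasted livers 3 had values far from these medians, and they are named after their values were seen. Socs2 differed by 1.04 ± 0.25 (limma, adjusted p = 0.115), Cish by 1.25 ± 0.43 (adjusted p = 0.255) and Bcl6, a repressor of STAT5 target genes, by -0.81 ± 0.23 (adjusted p = 0.173). In acute refed livers Cish differed by -1.10 ± 0.43 (limma, adjusted p = 0.464). Over all genotypes, Stat5a fell by 0.24 ± 0.06 on refeeding (limma, adjusted p = 0.00543), Stat5b fell by 0.34 ± 0.05 (adjusted p = 6.24e-05) and Socs2 rose by 0.97 ± 0.17 (adjusted p = 0.000388). Of all genes, 30.3% were called in that comparison. The separate Socs2 responses were 0.03 in Cre, 1.503 in GFP, 1.32 in KO and 1.04 in WT livers. Those of Cish were -0.26 in Cre, 2.09 in GFP, -0.19 in KO and 0.52 in WT livers. In GFP livers alone refeeding raised Socs2 by 1.503 ± 0.25 (limma, adjusted p = 0.00768) and Cish by 2.09 ± 0.43 (adjusted p = 0.0186), and in KO livers alone Stat5b fell by 0.47 ± 0.10 (adjusted p = 0.0296). Refeeding was called there for 6.56% of genes in GFP and 5.68% in KO livers. Stat5a and Stat5b are similar neighbouring genes, so reads could be shared between them.

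Of 12 further genes of the IGF system (Igf2, Igf1r, Igf2r, Insr, Igfbp5, Igfbp6, Igfbp7, Pappa, Pappa2, Stc1, Stc2 and Htra1) 5 or 6 were expressed enough to test. None was called between knockout and control. Igfbp7, a related protein that binds IGF1 weakly, rose by 0.41 ± 0.10 on refeeding over all genotypes (limma, adjusted p = 0.00489). It was the only call in this list, in a comparison where 30.3% of all genes were called. Igf2 and Igf1r, the other ligand and the IGF1 receptor, averaged at most 0.138 and 0.161 FPKM in any group. The liver RNA thus held a high level of Igf1 beside a very low level of its receptor.

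Of 4 other genes that FoxO1 is known to activate and insulin to repress (G6pc, Pck1, Irs2 and Ppargc1a), all were tested. Over both models limma called G6pc, the last enzyme of glucose output, lower in fasted knockout livers (-1.22 ± 0.26, adjusted p = 0.0312) and Ppargc1a, a coactivator of gluconeogenesis, lower in refed knockout livers (-0.49 ± 0.11, adjusted p = 0.0425). Neither gene was called between knockout and control within either model, and these 4 genes were not followed in the alternative settings. The medians of the 4 were -0.55 in fasted and -0.34 in refed knockout livers, beside 0.0054 and -0.0022 for all genes tested. Irs2, an adaptor of the insulin receptor, fell by 1.55 ± 0.17 in refed against fasted GFP livers (limma, adjusted p = 0.00125) and fell by 0.68 ± 0.10 over all genotypes (adjusted p = 5.21e-05). Of all genes, 6.56% were called for refeeding in GFP livers and 30.3% over all genotypes. The knockout comparisons over both models called 0.814% in fasted and 0.674% in refed livers.

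Genes whose levels followed each of the 6 most closely were ranked by Pearson correlation over the 24 libraries, after the mean of each model was removed, among 9696 genes. Igfbp2 had the closest companions: Hsd17b6, a steroid dehydrogenase (r = 0.926), Serpinb1a (0.895) and Plscr2 (0.892). Igfbp3 was followed by Tmsb4x, an actin-binding peptide abundant in leukocytes (0.888), Ssr2 (0.826) and Aimp1 (0.822). Igfbp1 was closest to Ip6k2 (0.797), Irf2bp2 (0.783) and Zkscan14 (0.755).

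Igf1 was closest to Slc22a30 (0.788), Serpina1e (0.766) and Acsm1 (0.765). Igfals was closest to Hagh (0.739), Poc1b (0.735) and Paqr9 (0.724), and Igfbp4 to Map2k2 (0.794), Gabarap (0.783) and Cox6a1 (0.782). These correlations are descriptions with no test, since the libraries share depth, feeding state and genotype.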

How the data were processed

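Polyadenylated RNA of 24 mouse liver samples was sequenced from stranded libraries, per the labels' protocols. The authors deposited 1 FPKM value per locus and library. Tools named in the submitters' processing notes are HISAT2, Cufflinks and Cuffdiff, and the build is mm10, with no versions. Of 23746 loci, 14 with a failed estimate in some library were dropped. Total depth is unknown, so no counting intervals are given.

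Groups and replicate numbers came from titles. Tests used limma 3.58.1 on log2(FPKM + 1) for loci with FPKM of at least 1 in at least 3 fitted libraries (R 4.3.3; lmFit, contrasts.fit, eBayes with trend; 1 coefficient per group), over 12 libraries within a model and all 24 across models. Two-sided p-values were adjusted by the Benjamini-Hochberg method across every gene kept, with calls at 0.05. Log2 differences on this scale understate changes of low genes; percentages of a group are ratios of mean FPKM. Of the marker symbols, Adgre1 was matched by its older symbol. Tables were made with Python 3.11.15 and pandas 2.3.3, promoters and start sites were taken from RefSeq (GRCm38.p6), and the fit was checked on simulated data.

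The 6 genes, the gene lists and the tests were chosen with earlier results of these data known. Log2 changes were printed for the 6 genes where called or with an unadjusted p under 0.05, and for Igf1 and Igfbp1 throughout. Some others of the 6 were given beside them. Genes of the 3 pathway lists were printed where called. Uncalled values of Socs2, Cish and Bcl6 were also printed, picked after they were seen. Marker lists are given by counts, sums and correlations. Alternatives were no filter, a replicate block, a pseudocount of 0.1, median-of-ratios scaling, the compared groups alone, no deeper acute libraries, and each library left out.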

Additional observations from a re-analysis of the deposited data

How the results depend on the processing

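Over 57 log2 differences of the 6 genes and 907 alternative values, 814 kept direction and side of the threshold, 48 lost the call, 11 gained one and 34 changed sign. The Igfbp2 knockout calls over both models and the Igfbp1 and Igfbp3 refeeding calls over all genotypes held in every setting run. How many of the 6 were called moved in these comparisons, and the cause was not tested. In the constitutive fasted comparison, 2 became 0 with no filter, 1 with the replicate block, 0 with the compared groups alone and 0 to 1 with 1 library left out. In the constitutive refed comparison, 1 became 0 with no filter and 0 to 1 with 1 library left out. Over both models refed, 2 became 1 with no filter, with median-of-ratios scaling, with the replicate block and without the 4 deeper acute libraries, and 1 to 2 with 1 library left out. Refeeding over all genotypes kept 2 to 4. The refeeding difference between models gave 1 without the deeper libraries and 0 to 1 with 1 library left out, as did refeeding in GFP, refeeding in Cre, and GFP against WT refed with 1 library left out.

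None of the differences that changed sign was called. With 1 library left out, Igfbp1 ran from -0.98 to 0.040 in the acute fasted and -1.19 to 0.061 in the acute refed comparison, -0.75 to 0.62 in the acute interaction, -0.093 to 0.34 in the constitutive one, -0.32 to 0.37 over both, and -0.0046 to 0.47 for GFP against WT fasted. Igf1 ran from -0.090 to 0.046 for GFP against WT fasted, -0.045 to 0.090 for refeeding in WT, -0.021 to 0.14 for refeeding in KO, -0.035 to 0.13 for the constitutive interaction and -0.077 to 0.013 for the refeeding difference between models. Median-of-ratios scaling turned Igf1 to -0.031 for refeeding in Cre and to -0.015 over all genotypes. Without the 4 deeper acute libraries, Igfbp1 was 0.16 in the acute fasted comparison and -0.15 for the refed difference between models, and Igf1 was 0.037 for the refeeding difference.

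Counts over all genes moved more. Refeeding gave 686 calls in GFP (222 to 679 over the alternatives), 569 in Cre (6 to 576), 589 in KO (71 to 824), 33 in WT (6 to 80) and 3236 over all (2621 to 3291). Knockout gave 31 acute fasted (5 to 61), 11 acute refed (3 to 66), 10 constitutive fasted (1 to 15), 3 constitutive refed (2 to 13), 87 over both fasted (31 to 97) and 72 over both refed (35 to 71). Interactions gave 3 acute (2 to 7), 0 constitutive (0 to 1) and 0 over both (0 to 1). Model differences gave 0 fasted (0 to 45), 0 refed (0 to 14) and 153 for refeeding (41 to 319), and GFP against WT 11 fasted (0 to 15) and 101 refed (1 to 250). Median-of-ratios scaling shifted the median gene by at most 0.105 on the log2 scale, in the refeeding difference between models, and split its calls into 39 higher and 116 lower, against 130 and 23 as deposited. It split calls into 239 higher and 304 lower in GFP refeeding (503 and 183 as deposited), 166 and 204 in Cre (449 and 120), 422 and 402 in KO (207 and 382), 29 and 47 in WT (16 and 17), 33 and 68 for GFP against WT refed (83 and 18), 2 and 1 for it fasted (7 and 4), and 6 and 9 in constitutive fasted livers (6 and 4).

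Same-numbered libraries had correlations of deviations of -0.335 to 0.365 (mean -0.0284) in the acute and -0.148 to 0.259 (mean 0.0739) in the constitutive model. Differently numbered libraries of different groups had -0.485 to 0.449 (mean 0.0138) in the acute and -0.335 to 0.234 (mean -0.037) in the constitutive model. Whether the numbers stand for a pairing was not tested. The replicate block changed the call of Igfbp1 in constitutive fasted livers (adjusted p = 0.0585, limma) and of Igf1 over both models refed (adjusted p = 0.0826, limma), and of no other of the 6. It moved counts of calls to 457 in GFP refeeding, 306 in Cre refeeding, 80 in WT refeeding, 5 in acute refed, and 2 in GFP against WT refed.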
